A study of Mus musculus with 12 samples.

Results

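The CCN family of secreted matrix proteins was followed through the colon epithelium of male mice given the plant flavonol quercetin for 24 hours. The members were taken as every probe set, that is every set of oligonucleotides that reads 1 transcript on the Affymetrix 430A array, whose array annotation named Ccn1, Ccn2, Ccn3, Ccn4 or Ccn5. This gave 8 probe sets of 5 genes, out of 22626 probe sets and 12393 named genes. Ccn3 was chosen by its low signal in wild type mice on quercetin, so that contrast and those that share its arrays are described for Ccn3 and not tested. The other members were included as relatives of Ccn3 and not for their values.

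The 4 groups were POR-null mice on quercetin, POR-null mice on control diet, wild type mice on quercetin and wild type mice on control diet. All were C57BL/6 males aged 6 to 8 weeks, and POR-null mice lack cytochrome P450 reductase, which passes electrons to microsomal cytochromes P450. The labels do not say in which tissues the gene is missing, and the deleted gene is not analysed here. Every mouse had 14 days on a soya-free RM3 powder, and the quercetin groups then received the same powder with 6200 ppm quercetin (7 mg for each mouse). Each array held RNA pooled from 3 mice, and each group had 3 arrays, so an SD is the spread between pools. The epithelial layer was scraped from the colon, and markers of that layer were bright on every array. The absorptive colonocyte list (13 measured genes, for instance Car1 and Slc26a3) averaged between 11.26 and 11.59 log2 units, and the goblet cell list (8 genes) between 11.98 and 12.46.

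CCN proteins are matricellular, which means that they sit in the extracellular matrix and pass signals to cells rather than bear load. They are built from modules that resemble insulin-like growth factor binding proteins, von Willebrand factor type C, thrombospondin and a cysteine knot, the last of which Ccn5 lacks. Integrins, heparan sulfate proteoglycans such as syndecan 4 and the receptor Lrp1 bind them. Ccn1 and Ccn2 are early targets of serum, TGF-beta and the YAP and TEAD factors, Ccn4 and Ccn5 were found as genes switched on by Wnt1, and Ccn3 binds Notch1.

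The genes lie at separate places in the genome. In the GRCm38.p6 assembly of RefSeq, Ccn1 is at chr3:145646971-145649985, Ccn2 at chr10:24595442-24598683, Ccn3 at chr15:54745910-54753762, Ccn4 at chr15:66891369-66923201 and Ccn5 at chr2:163820752-163833146. Of the 5 members, 1 matched the RefSeq promoter table, Ccn1. Its 250 bases before the start are shown because lists of TEAD and serum response genes, the known inputs to Ccn1, are described further on. The window lies on the minus strand at chr3:145649986-145650235, and capitals mark the 3 motifs.
Ccn1: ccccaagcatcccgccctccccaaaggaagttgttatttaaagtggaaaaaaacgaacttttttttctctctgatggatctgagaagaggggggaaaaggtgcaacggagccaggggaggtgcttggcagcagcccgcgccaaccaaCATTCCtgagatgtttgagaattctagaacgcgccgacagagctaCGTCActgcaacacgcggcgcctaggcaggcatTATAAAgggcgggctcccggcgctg
The motifs searched on both strands were CATTCC, the core read by TEAD factors, TGACG, the core of a cyclic AMP response element, which is present as its reverse complement CGTCA, and TATAAA, the TATA box. CATTCC lies 103 to 98 bases before the start, CGTCA 58 to 54 and TATAAA 25 to 20, and none overlaps another. Of 32851 promoter windows of the same length, 12.6% held CATTCC, 17.8% TGACG and 12.4% TATAAA on either strand. A match of letters is a description and not a shown binding site.

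Whole-array differences between the 12 arrays were small, with medians from 5.9 to 5.98 and correlations from 0.981 to 0.995. Some arrays stood apart in markers of other tissues. Smooth muscle genes averaged 6.62, 7.87 and 9.70 in the wild type quercetin arrays, against 6.46, 6.32 and 6.23 in the wild type control arrays. Pancreatic acinar genes averaged 10.04 in POR-null quercetin array 2 and 9.12 in wild type control array 1, and between 6.25 and 7.59 in the other 10. Wild type control array 1 also stood above its group in macrophage and MHC class II genes, with 7.30 beside 6.43 and 6.28. Values without these arrays are given for Ccn1, Ccn2 and Ccn3 and for some of the other genes and lists named. In such bulk samples fewer cells of a type and less RNA in each cell cannot be told apart.

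Ccn3 spanned more of the signal scale than any other member. Its 2 probe sets ran from 3.72 to 7.46 (1426852_x_at) and from 3.51 to 7.18 (1426851_a_at) over 12 arrays, ranges of 3.74 and 3.67 log2 units. The median probe set on the array had a range of 0.45, and 99.7% of all probe sets had a smaller range than either Ccn3 set. Both ends of each Ccn3 range were wild type arrays of the contrast that chose the gene. The wide range thus follows in part from that choice and is no separate result. The sets were nearly parallel, with r = 0.98 over 12 arrays and a gap between -0.05 and 0.65 log2 units. The suffix x marks a set that may also read other transcripts, and the set without that mark gave the same order of groups.

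**Figure D1:**
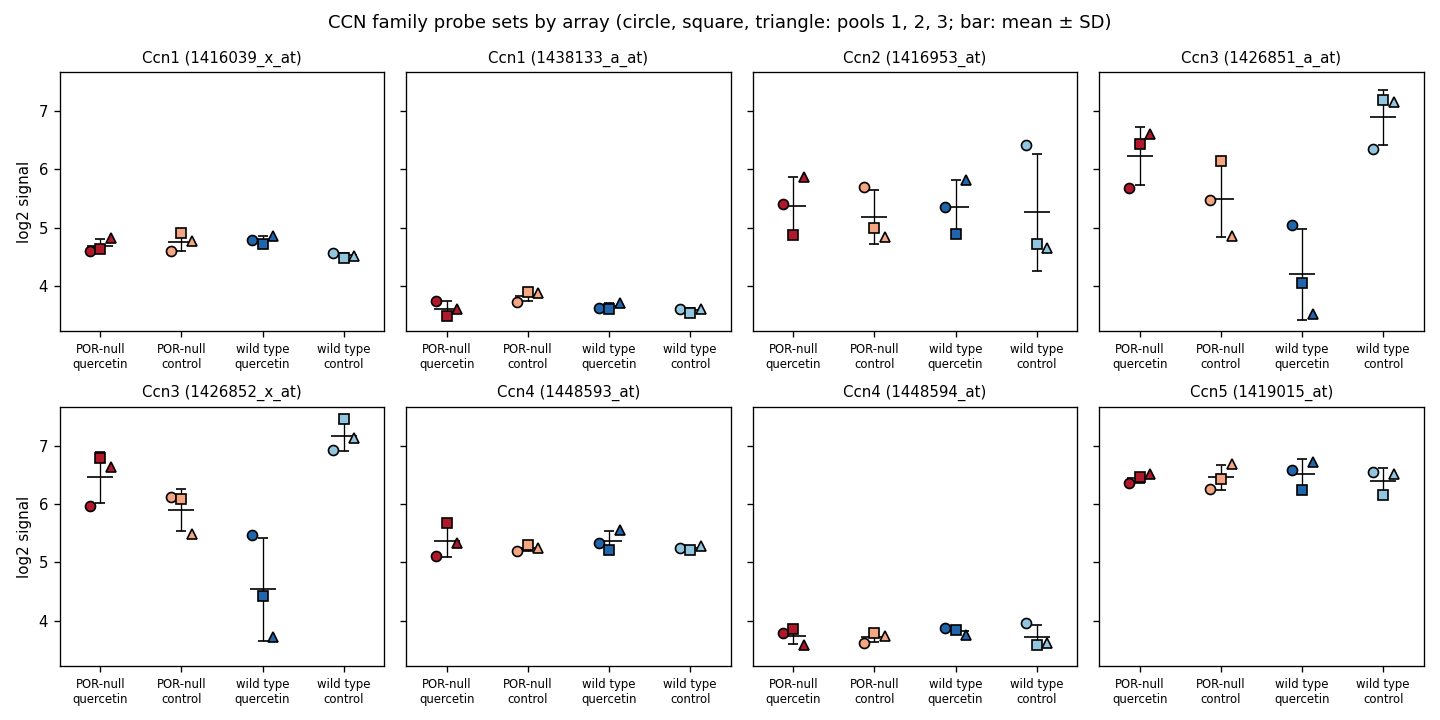
Log2 signal (y axis) of the 8 CCN probe sets in POR-null quercetin, POR-null control, wild type quercetin and wild type control arrays (x axis), with circles, squares and triangles for pools 1, 2 and 3 and a bar for mean ± SD. Both Ccn3 panels spread from below 4 to above 7, Ccn2 spreads by about 1 log2 unit in 3 groups and further in wild type control arrays, where 1 is high, and the other panels are nearly flat.

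In the wild type quercetin arrays the brighter Ccn3 set read 5.47, 4.42 and 3.72, against 6.93, 7.46 and 7.13 in the wild type control arrays. No quercetin array reached the lowest control array. The means were 4.54 ± 0.88 and 7.17 ± 0.27 (SD, n = 3 each), a difference of -2.64 (SE 0.36), or a level 6.22-fold lower on quercetin. Seen against all probe sets of an array, Ccn3 stood between percentiles 7.7 and 40.0 in the quercetin arrays and between 68.7 and 76.9 in the control arrays. The other set read 5.04, 4.04 and 3.51 on quercetin, against 6.34, 7.18 and 7.15 on control diet (difference -2.69, SE 0.40). These values chose the gene and carry no test. Of all probe sets 9.31% did not overlap between these groups, 3.66% with quercetin lower, and the 2 Ccn3 sets were among them by choice.

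In POR-null mice the Ccn3 values had the opposite sign, in arrays that the choice of the gene did not use. The brighter set read 5.96, 6.79 and 6.63 in POR-null quercetin arrays, against 6.12, 6.09 and 5.49 in POR-null control arrays. The groups overlap through POR-null quercetin array 1, which lay below 2 of the control arrays. The means were 6.46 ± 0.44 on quercetin and 5.90 ± 0.36 on control diet (SD, n = 3 each), a difference of 0.56 (SE 0.36, 95% interval -0.21 to 1.33), with an adjusted p = 1 by limma over all probe sets. The other set read 5.67, 6.43 and 6.60 on quercetin, against 5.47, 6.14 and 4.85 on control diet, a difference of 0.75 (SE 0.40, 95% interval -0.12 to 1.61, adjusted p = 1 by limma). Neither difference passed, and the intervals reach from a slightly lower level to one more than 1 log2 unit higher. Without POR-null quercetin array 2, the one with acinar signal, the brighter set differed by 0.39.

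The order of the group means was the same in both sets. For the brighter set wild type control stood at 7.17, POR-null quercetin at 6.46, POR-null control at 5.90 and wild type quercetin at 4.54. POR-null quercetin and POR-null control overlapped, while the arrays of the other neighbours in this order did not. POR-null control lay closest above wild type quercetin, with a lowest array of 5.49 beside a highest of 5.47. For the dimmer set each pair of neighbours overlapped, POR-null control (4.85 to 6.14) with wild type quercetin (3.51 to 5.04) included.

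The genotypes thus stood in opposite order on the 2 diets. On quercetin the brighter Ccn3 set was higher in POR-null mice by 1.92 (SE 0.36, means 6.46 and 4.54), and on control diet it differed by -1.27 (SE 0.36, means 5.90 and 7.17), 2.42-fold lower in POR-null mice. The dimmer set differed by 2.04 on quercetin and by -1.40 on control diet (SE 0.40 each). On quercetin the differences were 1.76 and 1.94 without POR-null quercetin array 2, and 1.52 and 1.69 without wild type quercetin array 3. On control diet they were -1.40 and -1.68 without wild type control array 1. Both comparisons share arrays with the one that chose Ccn3 and are given without a test. On each diet the genotypes did not overlap in either Ccn3 set. Of all sets 6.82% did not overlap on quercetin (3.08% with POR-null higher) and 9.67% on control diet (4.86% with POR-null lower). The wild type arrays in both comparisons chose the gene, so the Ccn3 sets are among these in part by choice. Without wild type control array 1 the difference in wild type mice was -2.76 for the brighter set and -2.97 for the dimmer. That array carried the acinar signal.

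**Figure D2:**
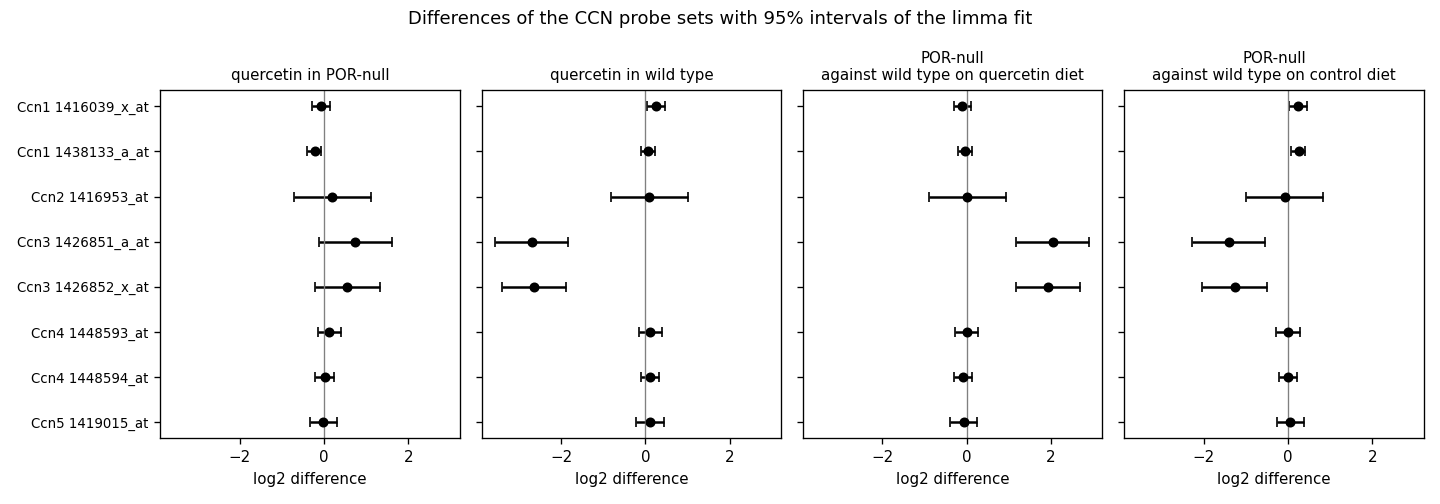
Log2 differences (x axis) of the 8 CCN probe sets (rows) with 95% intervals of the limma fit, in 4 panels for quercetin against control diet in POR-null and in wild type mice and for POR-null against wild type mice on quercetin and on control diet. The Ccn3 rows lie far from 0 in the 3 panels that contain arrays of the contrast that chose the gene, and their intervals include 0 for quercetin in POR-null mice.

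Smooth muscle genes differed between the same arrays. In POR-null mice on quercetin 13 of the 14 measured genes of that list were above 0 (median 0.18), and in wild type mice on quercetin all 14 were (median 1.64). The list had r = -0.70 with the brighter Ccn3 set over 12 arrays, and r = -0.61 after group means were removed, as a description of arrays that share their diets and genotypes. Wild type quercetin array 1 had a smooth muscle mean of 6.62, near the 6.23 to 6.46 of the wild type control arrays, and a Ccn3 signal of 5.47 beside their 6.93 to 7.46. With the smooth muscle mean as a covariate the wild type difference was -1.99 (SE 0.39) for the brighter set and -2.22 (SE 0.50) for the dimmer. With the fibroblast mean as a covariate these were -2.50 and -2.51. Without wild type quercetin array 3, the one with most smooth muscle signal, they were -2.23 and -2.35. The part of smooth muscle in the Ccn3 values was not tested beyond these values. Enteric neuron and glia genes had list means between 4.92 and 5.20. Their r with the brighter Ccn3 set was -0.48 over 12 arrays and -0.87 within groups. For small intestine enterocyte genes these were -0.02 and -0.68, and for the Wnt targets described further on 0.58 and 0.85.

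The genes whose pattern over 12 arrays was most like that of Ccn3 were Serinc3, a membrane protein that carries serine (r = 0.92, rho = 0.93), Ceacam10, a secreted member of the carcinoembryonic antigen family (r = 0.90, rho = 0.87), Deptor, an inhibitor of mTOR (r = 0.90, rho = 0.84), Epn3, an epsin of the endocytic coat (r = 0.89, rho = 0.81), and B3gnt3, a glycosyltransferase (r = 0.89, rho = 0.83). They were taken from 10338 probe sets with 1 gene name and at least median signal, of which 3 reached an r of 0.9. Ceacam10 stood at 8.03, 7.42 and 6.49 in wild type quercetin arrays, against 8.26, 8.58 and 8.41 in wild type control arrays, and its r was 0.95 within groups. Its difference was -1.10, and -0.69 without wild type quercetin array 3. A second Ceacam10 set had r = 0.88 and another, at low signal, r = -0.23. Serinc3 read 9.34, 9.28 and 9.13 on quercetin, against 9.71, 9.87 and 9.79 on control diet in wild type mice, and its other sets had r between 0.49 and 0.86. Within groups r was lower for Serinc3 (0.76) and Deptor (0.57), and was 0.88 for Epn3 and 0.89 for B3gnt3. The other Deptor sets had r of 0.74 and 0.49 over 12 arrays. At the other end lay Rfx5, a transcription factor of MHC class II genes (r = -0.88, rho = -0.83), the cytokine receptor Il27ra (r = -0.84, rho = -0.63) and Arfrp1, a GTPase of the Golgi (r = -0.84, rho = -0.84), whose other sets had r of -0.01 and 0.31. Likeness was ranked on arrays that include those that chose Ccn3, and no p is given.

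Deptor is also the nearest measured gene after Ccn3 on chromosome 15, 358.6 kb away. Its brightest set read 8.65, 8.31 and 8.31 in wild type quercetin arrays, against 9.12, 9.02 and 9.22 in wild type control arrays (difference -0.70, SE 0.12). In POR-null mice it read 8.86, 9.09 and 9.27 on quercetin, against 8.79, 8.97 and 8.96 on control diet (0.17, SE 0.12), a difference between 0.07 and 0.27 with 1 array left out. The other Deptor sets differed by -0.27 and -0.23 in wild type mice and by 0.08 and -0.15 in POR-null mice. On the other side the nearest measured gene was Mal2, a transcytosis protein of epithelial cells 143.1 kb away. It read 8.03, 8.15 and 8.22 in wild type quercetin arrays, against 7.97, 8.78 and 8.74 in wild type control arrays (-0.36, SE 0.19), and these groups overlap through wild type control array 1, without which the difference was -0.63. It was -0.22 without wild type control array 2 and -0.24 without array 3. The next genes out showed smaller differences in wild type mice, 0.01 for Tnfrsf11b and 0.12 for Ext1 before Ccn3, and 0.08 for Col14a1 and 0.00 for Mrpl13 after it. In POR-null mice Ext1 differed by -0.34 (SE 0.13) on quercetin. On control diet Ext1 was 0.28 (SE 0.13) higher in POR-null than in wild type mice.

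**Figure D3:**
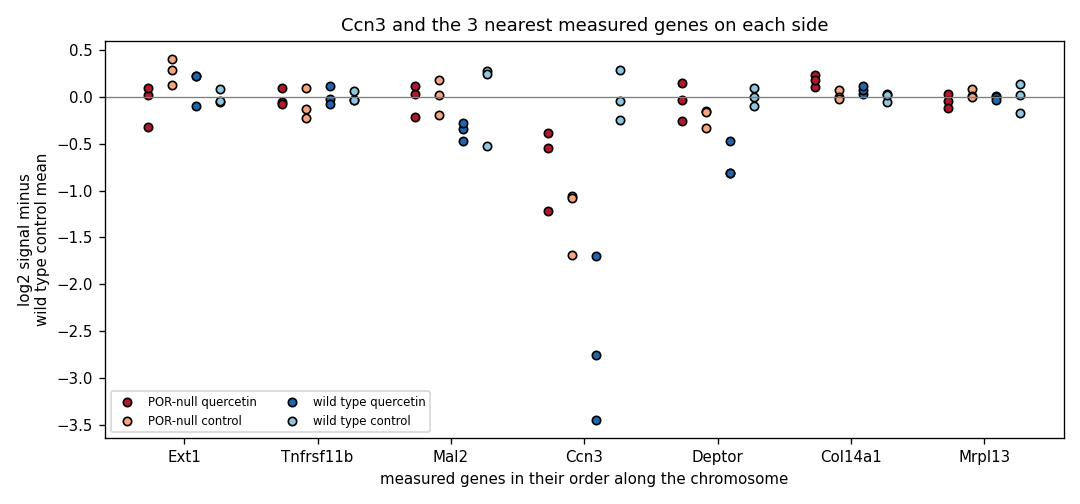
Log2 signal of each array minus the wild type control mean (y axis) for Ccn3 and the 3 nearest measured genes on each side in chromosome order (x axis), coloured by group. In wild type quercetin arrays Ccn3 drops to more than 3 log2 units below 0, Deptor and Mal2 lie below 0 by less than 1 unit, and the outer genes have means near 0.

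Ccn1, an early response protein that binds integrins, was dim but tightly measured. The brighter set (1416039_x_at) read 4.78, 4.71 and 4.85 in wild type quercetin arrays, against 4.57, 4.48 and 4.52 in wild type control arrays. All quercetin arrays lay above all control arrays, as did 5.65% of all probe sets in that direction. The difference was 0.26 (SE 0.10), with an adjusted p = 0.952 by limma. It was the 1 set of the 6 other than Ccn3 whose groups did not overlap, and the 1 at an unadjusted p under 0.05, beside 5.15% of all sets. The dimmer set (1438133_a_at) read 3.62, 3.61 and 3.71 on quercetin, against 3.60, 3.54 and 3.61 on control diet, and differed by 0.06 (SE 0.07). Without wild type quercetin array 3 the differences were 0.22 and 0.03, and without wild type control array 1 they were 0.28 and 0.07. In POR-null mice the signs were turned, at -0.07 (SE 0.10) for the brighter set and -0.22 (SE 0.07) for the dimmer. The dimmer set read 3.74, 3.48 and 3.60 on quercetin, against 3.73, 3.89 and 3.87 on control diet. It was the 1 of 8 member sets at an unadjusted p under 0.05 (adjusted p = 1 by limma), beside 2.82% of all sets, and its groups overlap. For the difference between the genotypes in the response to quercetin both Ccn1 sets had an unadjusted p under 0.05, beside 4.74% of all sets, at -0.33 (SE 0.14) and -0.29 (SE 0.11), with an adjusted p of 0.998 by limma for each.

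On control diet both Ccn1 sets were higher in POR-null arrays than in wild type arrays, without overlap. The brighter set read 4.59, 4.90 and 4.77 in POR-null control arrays, against 4.57, 4.48 and 4.52 in wild type control arrays, a difference of 0.23 (SE 0.10). The dimmer set read 3.73, 3.89 and 3.87, against 3.60, 3.54 and 3.61, a difference of 0.25 (SE 0.07). Without wild type control array 1 both were 0.25. Neither passed, with adjusted p of 0.734 and 0.710 by limma. Both had an unadjusted p under 0.05, beside 6.79% of all sets, and 4.81% of all sets lay apart with POR-null mice higher. All 14 smooth muscle genes were above 0 in the same comparison (median 1.04), and with their mean as a covariate the Ccn1 differences were 0.21 and 0.22. Their part in the Ccn1 values was not tested further. On quercetin the same sets differed by -0.10 (SE 0.10) and -0.04 (SE 0.07) between the genotypes. All Ccn1 values lay under 5 log2 units, and the dimmer set stood between percentiles 4.8 and 11.1 of its arrays.

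Ccn2, the connective tissue growth factor that acts with TGF-beta in matrix production, varied more within each group than between the group means. It read 5.40, 4.87 and 5.86 in POR-null quercetin arrays, against 5.70, 5.0 and 4.84 in POR-null control arrays. In wild type mice it read 5.36, 4.89 and 5.82 on quercetin, against 6.42, 4.72 and 4.65 on control diet. Each control group held 1 high array, the quercetin arrays were evenly spread, and all groups overlapped. The differences were 0.20 (SE 0.42, 95% interval -0.72 to 1.11) in POR-null mice and 0.09 (SE 0.42, 95% interval -0.82 to 1.01) in wild type mice, with adjusted p of 1 and 0.995 by limma. The genotypes differed by 0.02 on quercetin and by -0.08 on control diet (SE 0.42 each). Without wild type control array 1 the wild type difference was 0.67 (SE 0.32, adjusted p = 0.599 by limma), and without wild type quercetin array 3 it was -0.14. Without POR-null quercetin array 2 the POR-null difference was 0.45.

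The spread of Ccn2 was set beside that of marker lists of stromal cells. Its pooled SD within groups was 0.65, larger than that of 99.0% of probe sets (median 0.14). Over 12 arrays Ccn2 had r = 0.74 with the mean of the fibroblast list (15 measured genes, for instance Col1a1 and Dpt) and rho = 0.78, with permutation p of 0.00527 and 0.00423. In a family of 72 relations, 6 member sets with 12 marker lists, the adjusted p was 0.339 and 0.152, so the relation did not pass the correction, nor did any other of the 72. With the smooth muscle list r was 0.29. Without the 2 arrays farthest from the median of the list, r was 0.65. After group means were removed, r was 0.90 with fibroblast, 0.89 with endothelial and 0.88 with macrophage and MHC class II genes. With the fibroblast mean as a covariate Ccn2 differed by -0.83 (SE 0.24) in wild type mice on quercetin, against 0.09 without it, and the adjusted p was 0.999 by limma. With that covariate the POR-null against wild type difference on control diet was -0.81, against -0.08 without it. Leaving out wild type control array 1 in place of the covariate turned that difference to 0.49. The part of stromal cells in the Ccn2 values was not tested beyond these values.

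**Figure D4:**
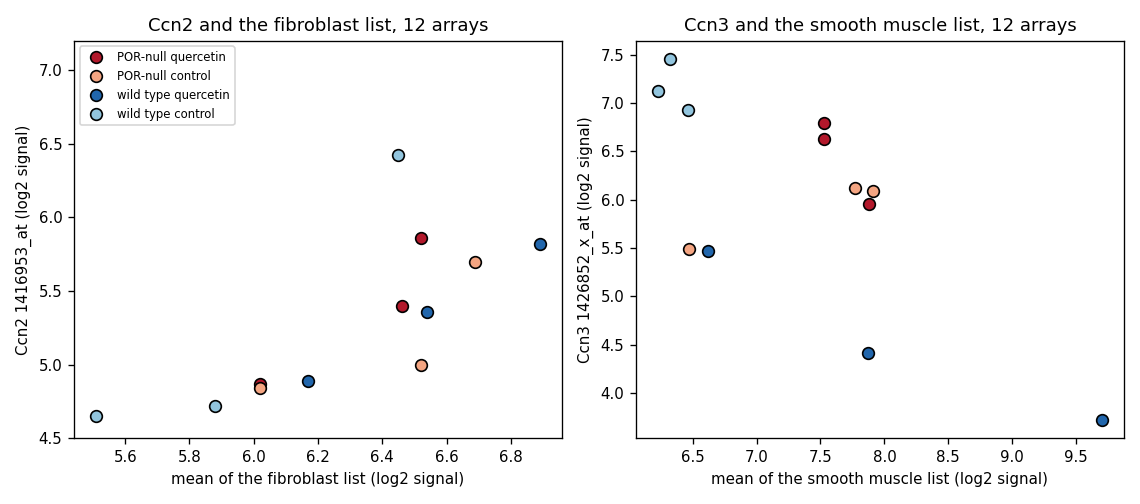
Left, Ccn2 log2 signal (y axis) against the mean log2 signal of the fibroblast list (x axis), and right, Ccn3 log2 signal against the mean of the smooth muscle list, with 1 point for each of 12 arrays coloured by group. Ccn2 climbs with the fibroblast mean in all groups, with 1 wild type control array above the rest. The 3 wild type control arrays sit at the upper left of the Ccn3 panel and a wild type quercetin array at the lower right.

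Ccn4 and Ccn5, the members named for their response to Wnt1, were flat. The brighter Ccn4 set (1448593_at) read 5.11, 5.67 and 5.34 in POR-null quercetin arrays, against 5.20, 5.29 and 5.25 in POR-null control arrays. In wild type mice it read 5.33, 5.22 and 5.56 on quercetin, against 5.25, 5.22 and 5.28 on control diet. The differences were 0.13 and 0.12 (SE 0.13 each), both within the spread of the quercetin arrays. The dimmer set (1448594_at) stayed between 3.58 and 3.96 on all arrays, and the pair of sets correlated weakly over 12 arrays (r = 0.18). Ccn5, which in smooth muscle is known to restrain growth, read 6.36, 6.46 and 6.51 in POR-null quercetin arrays, against 6.26, 6.43 and 6.68 in POR-null control arrays. In wild type mice it read 6.58, 6.24 and 6.73 on quercetin, against 6.55, 6.15 and 6.51 on control diet. Its differences were -0.01 (95% interval -0.34 to 0.31) and 0.11 (95% interval -0.21 to 0.44). By limma Ccn4 and Ccn5 had adjusted p of at least 0.966 in every comparison.

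Among the nearest measured genes of the other members, Ada, an adenosine deaminase 70.5 kb before Ccn5, differed most, at -0.87 (SE 0.39) in wild type mice on quercetin (-0.21 without wild type quercetin array 1) and 0.86 (SE 0.39) in POR-null mice on quercetin. On control diet it differed by -1.09 (SE 0.39) between POR-null and wild type mice, while Ccn5 beside it differed by 0.05 (SE 0.15). Bcl10 beside Ccn1, Enpp3 beside Ccn2 and Ndrg1 beside Ccn4 differed by -0.12, -0.20 and -0.15 in wild type mice on quercetin, and 0 of these neighbours passed. The other Enpp3 sets ran from -0.71 (SE 0.30) to 0.09 (SE 0.12) in that comparison. On control diet the first Enpp3 set differed by -0.40 (SE 0.16) between POR-null and wild type mice. Gm15270, on the other side of Ccn2 and closer to it, differed by -0.15 (SE 0.12) in wild type mice on quercetin.

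The receptors of CCN proteins were measured for all 14 listed genes, and 0 passed by limma in either quercetin comparison. In POR-null mice on quercetin 4 were above 0 and 10 below (median -0.07, against 0.01 for all probe sets), and in wild type mice 8 were above and 6 below (median 0.03, against 0.00). Of all probe sets 52.1% were above 0 and 47.2% below in POR-null mice, and 50.2% and 49.7% in wild type mice. The brightest set of Itgav, the alpha v chain that pairs with Itgb3 and Itgb5, stood at 7.77 on quercetin and 8.10 on control diet in POR-null mice (-0.33, SE 0.12, groups without overlap, beside 6.75% of all sets, 3.27% with quercetin lower). The other Itgav sets differed there by -0.09 (SE 0.14) and -0.04 (SE 0.12), with overlap. On control diet the brightest Itgav set was higher in POR-null than in wild type mice, at 8.10 against 7.68 (0.42, SE 0.12, adjusted p = 0.710 by limma). Itgb3 stood at 5.53 against 5.31 in POR-null mice on quercetin (0.22, SE 0.10), and 0.14 without POR-null control array 2. Syndecan 4, a heparan sulfate proteoglycan, gave discordant sets, with -1.58 (SE 0.40) for 1 set and 0.09 (SE 0.17) for the other in POR-null mice, and 1.17 (SE 0.40) and -0.23 (SE 0.17) in wild type mice.

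Pathways upstream of Ccn1 and Ccn2 also held no gene past the threshold by limma. Of 18 serum response and immediate early genes, 13 were below 0 in POR-null mice on quercetin (median -0.13) and 4 of these had an unadjusted p under 0.05, beside 1.53% of all sets in that direction. They were Btg2 (-0.48, SE 0.11), Atf3 (-0.44, SE 0.12), Zfp36 (-0.25, SE 0.09) and Fos (-0.49, SE 0.22). Each was without overlap between groups, as were 6.75% of all sets (3.27% with quercetin lower). In wild type mice 12 of 18 were below 0 (median -0.13), with Egr1, a growth factor response gene, at 7.62 on quercetin and 8.09 on control diet (-0.47, SE 0.15), the 1 gene of the list at an unadjusted p under 0.05 in that direction, beside 1.94% of all sets. Without wild type control array 1 Egr1 differed by -0.30 and the median of the list by -0.07. Leaving out wild type quercetin array 3 instead gave a list median of -0.06. Ccn1 itself, of the same class and dim, was in wild type mice at 0.26 (SE 0.10, adjusted p = 0.952 by limma) for the brighter set. Its dimmer set was at 0.06 (SE 0.07). Of 17 YAP and TEAD targets 9 were above 0 in POR-null mice (median 0.00) and 12 in wild type mice (median 0.07), with 1 at an unadjusted p under 0.05 in each, F3 (0.50, SE 0.19, beside 1.29% of all sets in that direction) and Foxf2 (0.23, SE 0.10, beside 3.2%). F3 was at 0.29 without POR-null control array 1. The Hippo core list of 15 genes had a median of -0.01 in POR-null and 0.02 in wild type mice. In wild type mice 9 were above 0 and 6 below, with 1 higher at an unadjusted p under 0.05, beside 3.2% of all sets. Tead2 was at 0.19 (SE 0.08) there. The Wwtr1 sets were discordant in size, at 0.86 (SE 0.20), 0.18 (SE 0.09) and 0.14 (SE 0.08) in wild type mice. In POR-null mice the same sets differed by -0.22, 0.04 and -0.03. Among 13 TGF-beta genes the median was -0.04 in POR-null and 0.10 in wild type mice. In wild type mice 8 were above 0 and 5 below, with 3 higher at an unadjusted p under 0.05, beside 3.2% of all sets. Ltbp1, which holds latent TGF-beta in the matrix, was at 3.87 on quercetin and 3.56 on control diet in wild type mice (0.30, SE 0.08). Both means lie under the lower quartile of signal (4.66 to 4.78 over the arrays). The Tgfbi sets differed by 0.68 to 0.90 in wild type mice and by 0.13 to 0.32 in POR-null mice.

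The pathways tied to Ccn3 and to the Wnt-induced members gave median differences near 0. Of 16 Notch genes 13 were above 0 in POR-null mice on quercetin (median 0.07) and 8 in wild type mice (median 0.00). Hes1, a Notch target, differed by -0.35 (SE 0.16) between POR-null and wild type mice on control diet. Of 11 Wnt targets 6 were above 0 in POR-null mice (median 0.01) and 2 in wild type mice (median -0.07), beside 52.1% and 50.2% of all sets. In the 1 set used per gene, 0 had an unadjusted p under 0.05. Another set of Sox9 differed by -0.42 (SE 0.18) in wild type mice. Another set of Axin2 differed by 0.22 (SE 0.10) in POR-null mice. Both of these had an unadjusted p under 0.05 by limma. The IGF system, which shares a module with CCN proteins, had 7 of 11 genes above 0 in POR-null mice (median 0.01) and 9 of 11 in wild type mice (median 0.07).

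Other matricellular proteins had mostly positive differences in wild type mice. Of 15 measured genes 14 were above 0 on quercetin (median 0.33, against 0.00 for all probe sets) and 6 had an unadjusted p under 0.05, beside 3.2% of all sets in that direction. The cases of smallest p were Sparcl1, an antiadhesive protein of vessels, at 7.15 on quercetin and 5.29 on control diet (1.86, SE 0.50), tenascin C at 5.75 and 4.57 (1.18, SE 0.37), periostin at 7.13 and 5.72 (1.41, SE 0.46) and Fbln5, which helps to assemble elastic fibres, at 5.84 and 5.51 (0.33, SE 0.13). Without wild type quercetin array 3 Sparcl1 differed by 1.19. By limma 0 passed, with adjusted p of at least 0.948. In POR-null mice 8 of 15 were above 0 (median 0.00). The list mean was 6.58, 6.34 and 6.86 in wild type quercetin arrays, against 6.49, 5.81 and 5.60 in wild type control arrays. Of the fibroblast list 13 of 15 genes were above 0 in the same comparison (median 0.55), and of the smooth muscle list all 14 (median 1.64, 12 at an unadjusted p under 0.05). With the fibroblast mean as a covariate the median of the matricellular list was 0.07, and with the smooth muscle mean it was 0.23. It was 0.54 without wild type control array 1 and 0.29 without wild type quercetin array 3. The part of either cell type was not tested further. The 6 CCN sets other than Ccn3 had a median of 0.11 in the same comparison.

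**Figure D5:**
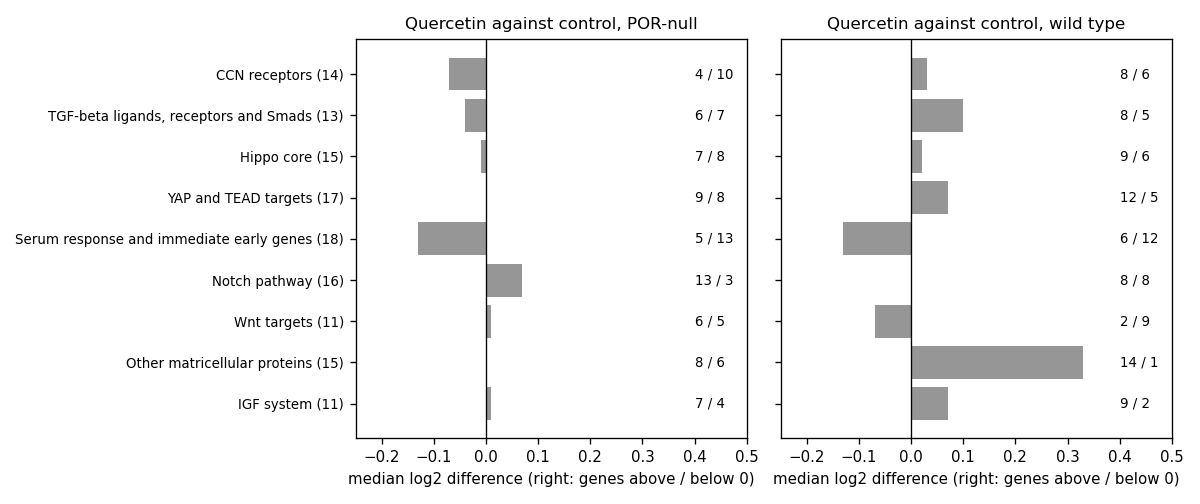
Median log2 difference (x axis) between quercetin and control diet of 9 gene lists (rows, with the number of measured genes), in POR-null mice on the left and wild type mice on the right, and at the right of each panel the numbers of genes above and below 0. The matricellular list in wild type mice reaches 0.33, and all other medians lie between -0.13 and 0.10.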

How the data were processed

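RNA from scraped colon epithelium was hybridised to 12 Affymetrix 430A arrays, per the labels. The authors deposited log2 signal for 22690 probe sets. Both MAS5 and RMA stand in the submitters' processing notes, and which of them gave these values is not given in the sources used here. Values ran from 2.7 to 14.09 and were used as they stand, without a new background step or normalization. Leaving out 64 control sets left 22626, of which 20380 had 1 gene symbol in the array annotation, 691 several and 1555 none. All CCN sets passed, since no filter on signal was set.

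Groups came from the sample titles. limma 3.58.1 in R 4.3.3 fitted 4 group means to all 12 arrays (lmFit, eBayes with trend, 8 residual and 4.91 prior degrees of freedom), with two-sided p adjusted by Benjamini and Hochberg over all sets and a threshold of 0.05. The step was tested on simulated data. SE and 95% intervals are from that fit. Permutation p used 100000 resamples and is two-sided. Lists use 1 set per gene, the one of highest mean, and named list members are those of smallest unadjusted p, up to 4. The members, lists and naming rules were chosen with earlier results of these data known. Leaving out single arrays for named genes was added after seeing the data. The number of arrays limits the precision.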

Additional observations from a re-analysis of the deposited data

Results flagged for a closer look

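Both Ccn3 sets and 1 Ccn1 set were flagged by a rule on the 2 genotypes. Every quercetin array lay on 1 side of its control mean in POR-null mice and on the other side in wild type mice. The share of all probe sets that meet this rule is not given, so the flags are a description only. The Ccn3 sets meet the wild type side of the rule by choice of the gene. The Ccn1 set differed by 0.06 (SE 0.07) in wild type mice. For Ccn3 the quercetin difference in POR-null mice minus that in wild type mice was 3.20 (1426852_x_at) and 3.44 (1426851_a_at) log2 units. It was not tested, since the gene was chosen for the wild type difference. For the dimmer Ccn1 set (1438133_a_at) it was -0.29 (SE 0.11), with an adjusted p = 0.998 by limma.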

How the results depend on the processing

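Of 862 values of the CCN sets under the alternatives, 845 moved by less than the SD between pools, 17 moved by more, and 36 took the opposite sign while passing in neither fit. Part of the 845 was fixed in advance, since some alternatives cannot move a difference of group means. These were eBayes without trend, the filter on signal, the replicate block and the fit to the compared groups alone. Leaving out an array of a group not compared cannot move it either. Ccn3 kept its sign in each comparison under every alternative run. The wild type difference of the brighter set lay between -3.10 and -1.99 and the POR-null difference between 0.36 and 0.81. Every comparison except quercetin in POR-null mice uses wild type arrays that chose the gene. A kept sign there follows in part from that choice and is no test. For quercetin in POR-null mice the main intervals of the Ccn3 sets included 0 (-0.21 to 1.33 and -0.12 to 1.61), so the direction stayed unsettled. Setting values under 5 to 5 made every Ccn1 difference 0, since all Ccn1 values lie under 5. A filter at the lower quartile left out both Ccn1 sets and the dimmer Ccn4 set. By limma 0 probe sets passed in each of the 5 comparisons, with 1165 at an unadjusted p under 0.05 for quercetin in wild type mice. With array weights 2 passed there, the Ccn3 sets, which that contrast chose and does not test, and 399 for POR-null against wild type mice on control diet. With the replicate number as a block, and with a fit to the compared groups alone, 1 passed each for POR-null against wild type mice on quercetin. The labels give the numbers no meaning and 6 of 18 same-numbered pairs had a correlation of deviations above 0.1, so the arrays were not taken as paired. As a hint of pairing from the data, 8 of 12 arrays correlated best with one of their own number and 4 with one of another number. The block changed no call of a CCN set. With 1 array left out, calls ranged from 0 to 3 for quercetin in wild type mice (3 without wild type quercetin array 1, the chosen Ccn3 sets again among them, which is no test of Ccn3), from 0 to 1 for quercetin in POR-null mice, the interaction and the genotypes on quercetin, and from 0 to 41 for the genotypes on control diet (41 without wild type control array 1). The cause of these moves was not tested.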
